A study of Mus musculus with 27 samples.

Results

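The integrated stress response and the serine synthesis pathway were followed here through 33 genes, picked by name from the 55369 rows of the count table and measured in 27 libraries of cultured mouse morulae. All 33 symbols were found in the table. They cover 3 kinases that phosphorylate the translation initiation factor eIF2, 7 transcription factors, 4 feedback and effector genes, 6 enzymes of serine and one-carbon synthesis, 3 other enzymes of amino acid and carbon metabolism, 5 amino acid transporters, and 5 genes for secreted, membrane or tRNA export proteins.

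In the integrated stress response, different kinases sense different stresses (HRI, gene Eif2ak1, senses haem and mitochondrial stress, PERK, gene Eif2ak3, unfolded protein in the endoplasmic reticulum, and GCN2, gene Eif2ak4, uncharged tRNA) and phosphorylate the alpha subunit of eIF2. Translation then falls in general while that of the Atf4 mRNA rises. ATF4 protein, with partners of the C/EBP family, induces genes of amino acid import, amino acid synthesis and tRNA charging, and the factors DDIT3 and ATF3. Among the targets are the enzymes that make serine from a glycolytic intermediate (PHGDH, PSAT1 and PSPH) and the mitochondrial enzymes that pass a serine carbon to folate (SHMT2 and MTHFD2). Since ATF4 is controlled largely at translation, the mRNA level of Atf4 is not a measure of ATF4 protein, and phosphorylated eIF2 was not measured in these data.

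Every library was made from polyadenylated RNA of a pool of 15 to 20 wildtype embryos, grown in KSOM medium and harvested as morulae at embryonic day E2.75, and each of the 9 groups has 3 libraries. In the inhibitor family, embryos received from E2.5 to E2.75 a Vehicle, SAHA at 500 nM or TSA at 50 nM, both inhibitors of zinc-dependent histone deacetylases, or A-485 at 10 uM (the group A485), an inhibitor of the acetyltransferases p300 and CBP. The doses of the agents differ. In the siRNA family, embryos were injected at E0.5 with a control siRNA (siControl) or with siRNAs named for p300 (siP300), Kat6a (siKat6a), Kat6b (siKat6b) or a combination (siComb) whose content the labels do not give. Nothing in the labels says that the pools of a group came from separate collections, so p-values reflect the spread among these samples alone, possibly a technical one. Library totals ran from 7633990 to 11991314 counts.

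The targeted genes were checked first, in CPM, the count of a gene relative to the TMM-scaled library total (mean ± SD, n = 3 throughout). Ep300, the gene of p300, stood at 18.4 ± 8.45 CPM in siP300 and 24.9 ± 3.29 in siControl (log2 -0.43 ± 0.29, adjusted p = 0.259, groups overlapping). The libraries labelled siP300 are therefore named below by their label. "Apart" means here and below that every library of one group lay beyond every library of the other, and log2 changes are given with their standard error and an edgeR adjusted p. Kat6a stood at 12.1 ± 1.58 CPM in siKat6a against 16.7 ± 1.28 (log2 -0.46 ± 0.20, adjusted p = 1, groups apart), and Kat6b at 73.6 ± 6.14 in siKat6b against 108 ± 6.99 (log2 -0.56 ± 0.27, adjusted p = 0.495, groups apart). In the libraries labelled siComb, Kat6a and Kat6b passed the test (log2 -0.64 and -1.03, adjusted p = 0.022 and 0.00819) and Ep300 did not (log2 -0.15, adjusted p = 0.722).

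Other features of the libraries moved with the groups. The mean share of counts in mitochondrially encoded genes was 1.07% for Vehicle, 1.94% for SAHA, 2.51% for A485 and 3.09% for TSA. It was 2.27% in siControl against 5.83% in siP300 and 5.14% in siComb. The summed level of 12 morula markers ran at 10816 to 11866 CPM in Vehicle and 11284 to 15914 in siControl, and at 2053 to 3317 in A485, 4585 to 6619 in siP300 and 3001 to 4211 in siComb. Of these markers Sox2 had 0 counts in all 27 libraries, which allows up to 0.0111 CPM (3 counts of the summed total, counting error only). This bounds the counts assigned to Sox2, and whether its reads were lost in assignment was not tested. Cdx2 had 0 counts in A485, which allows up to 0.0885 CPM over the group. The 10 blood and immune markers summed to 12.2 to 16.6 CPM in siControl, 69.8 to 178 in siP300 and 115 to 171 in siComb, and 10 cumulus and granulosa markers to 3.72 to 4.48, 13.6 to 26.3 and 11.1 to 25.2. In the inhibitor family the blood list ran at 18.6 to 23.3 CPM in Vehicle, 25.4 to 28 in SAHA, 37.5 to 68.4 in A485 and 50.2 to 89.9 in TSA, and the cumulus list at 1.92 to 5.39, 4.28 to 9.38, 6.29 to 7.65 and 4.73 to 7.37. The 8 oviduct and stromal markers stayed at or below 9.15 CPM in all 27 libraries. Of the blood list, 4 markers had 0 counts in siP300 (Ptprc, Tyrobp, Hbb-bs and Hbb-bt) and 3 in siComb (Tyrobp, Hbb-bs and Hbb-bt), and of the cumulus list 1 in each (Fshr in siP300, Amh in siComb). Among siRNA libraries, 4 stood high in the retroelement MERVL (siP300 2, siKat6b 1, siKat6b 3 and siComb 2, at 794 to 908 CPM). In the inhibitor family MERVL ran at 13.5 to 272 CPM in Vehicle and 6.07 to 16.9 in A485. It ran far higher in SAHA, at 2241 to 5096 CPM, and in TSA, at 9411 to 10593. The part of these differences in the results below was not tested.

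ATF4 and its C/EBP partners bind a composite element, the C/EBP-ATF response element (CARE), whose core was searched as TGATGNAA on both strands of RefSeq promoters (GRCm38.p6, 250 bases before to 50 after a RefSeq start). Such a start need not be the outermost one of the gene. The windows printed below for Atf3, Nupr1 and Vldlr lie inside the gene bounds of the annotation used for positions, and that of Asns in part. Of the 33 members, 29 had an entry (not Aldh1l2, Cth, Slc7a5 and Slc1a5), and 10 of the 29 held at least 1 match: Atf3, Nupr1, Trib3, Chac1, Asns, Pck2, Slc1a4, Fgf21, Vldlr and Herpud1. A match was held by 4.51% of all 27025 symbols and by 3.97% of all 32851 promoters. Since the members are largely known ATF4 targets, the share describes the list, and a match is letters in a window, not a bound site. The windows of 60 bases below, 5′ to 3′ along the gene's strand, are shown for the members with a match clear of the start, with the match in capitals. TTGCATCA is the reading of TGATGCAA from the opposite strand.
Atf3, chr1:191183410-191183469, minus strand: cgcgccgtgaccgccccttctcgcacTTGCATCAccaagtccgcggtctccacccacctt
Chac1, chr2:119351023-119351082, plus strand: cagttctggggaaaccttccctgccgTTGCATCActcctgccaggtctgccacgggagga
Nupr1, chr7:126625547-126625606, minus strand: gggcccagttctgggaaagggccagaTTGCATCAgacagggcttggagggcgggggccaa
Herpud1, chr8:94386291-94386350, plus strand: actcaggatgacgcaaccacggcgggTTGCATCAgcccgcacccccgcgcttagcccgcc
Vldlr, chr19:27216794-27216853, plus strand: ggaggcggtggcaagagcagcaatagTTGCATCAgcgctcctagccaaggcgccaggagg
Fgf21, chr7:45615596-45615655, minus strand: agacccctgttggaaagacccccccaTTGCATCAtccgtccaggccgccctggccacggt
Asns, chr6:7693210-7693269, minus strand: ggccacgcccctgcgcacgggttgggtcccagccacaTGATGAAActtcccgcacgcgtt
Pck2, chr14:55540137-55540196, plus strand: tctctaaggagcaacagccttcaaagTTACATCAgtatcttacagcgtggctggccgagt
The first 6 share the 8 letters TTGCATCA, read toward the gene. Asns carries the core in the other orientation, as TGATGAAA, within the 60 bases before its start, and Pck2 carries TTACATCA. The cAMP response element TGACGTCA was found in 1 member, Ppp1r15a, against 2.03% of all symbols, and the endoplasmic reticulum stress element (ERSE), searched the same way, in 0 members against 0.137%.

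Compared per kilobase of exon, which corrects for gene length, enzymes of serine synthesis led the list in control morulae. Psat1 stood highest, at 129 ± 31.3 CPM per kb in Vehicle and 101 ± 18.1 in siControl, followed by Phgdh at 86.8 ± 26.1 and 52.1 ± 15.2. Psat1 and Phgdh overlap within 1 SD in Vehicle. Atf4 reached 57.2 ± 3.37 and 42.3 ± 3.7 CPM per kb, and Slc3a2, the shared heavy chain of amino acid exchangers, 53.2 ± 4.33 and 37.4 ± 3.31. At the other end, Fgf21, a secreted metabolic hormone, had 0 counts in the 3 Vehicle and the 3 siControl libraries, which allows up to 0.0937 and 0.0949 CPM over the group.

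**Figure D1:**
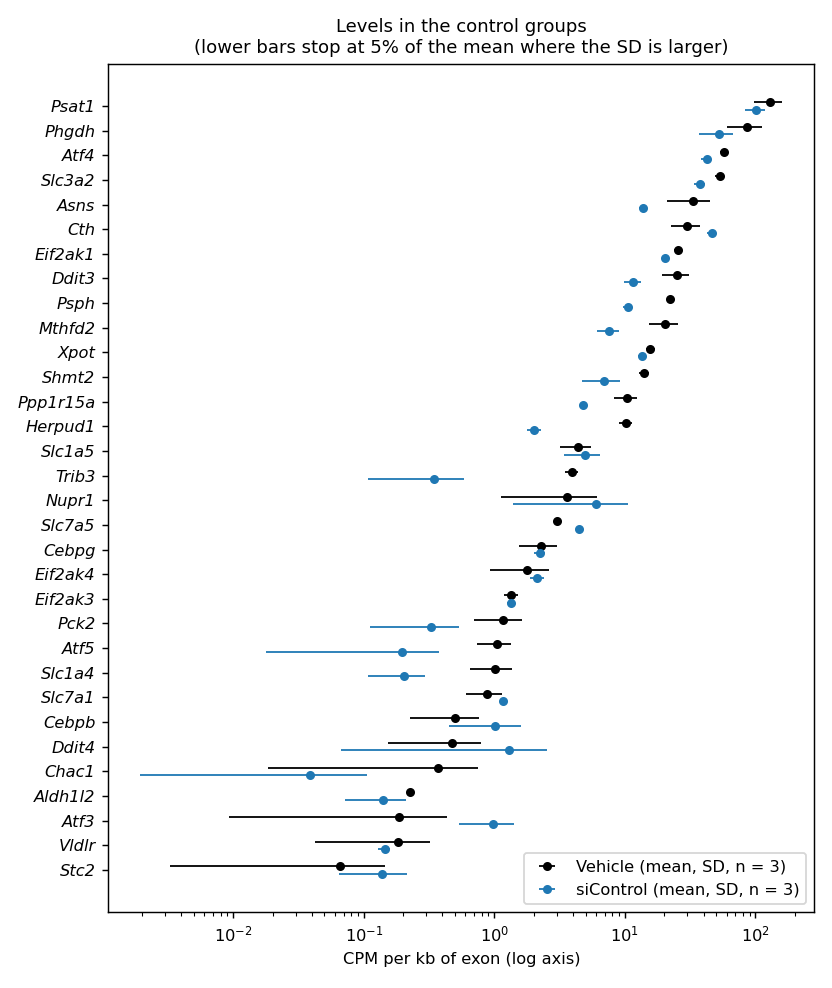
Mean level of the members in the Vehicle and siControl morulae in CPM per kb of exon, on a log axis, with Fgf21 left out because it had 0 counts in both groups. Psat1 and Phgdh stand at the top, with Psat1 at 129 CPM per kb in Vehicle and 101 in siControl.

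Of the 33 members, 31 could be tested in each family after a filter on low counts: Fgf21 was too low in both families, Stc2 in the inhibitor family and Atf5 in the siRNA family. A member that passed the filter through 1 group alone was bound to differ more, so the counts that follow describe the list. Against Vehicle, SAHA raised 5 and lowered 3 of 31 (adjusted p under 0.05), beside 34.2% (20.2% higher and 14.0% lower) of all 18299 genes tested. A485 raised 11 and lowered 6, beside 45.5% (21.4% higher and 24.2% lower) of all genes. TSA raised 8 and lowered 3, beside 58.2% (31.6% higher and 26.6% lower) of all genes. Against siControl, siP300 raised 10 and lowered 5 of 31, beside 35.4% (19.7% higher and 15.7% lower) of 19182 genes, and siComb raised 9 and lowered 5, beside 36.7% (19.6% higher and 17.1% lower). In siKat6a and siKat6b 0 members passed in edgeR and 0 in DESeq2, beside 0% and 0.0209% (0.0104% higher and 0.0104% lower) of all genes in edgeR. At an unadjusted edgeR p under 0.05 there were 2 and 8 of the 31 members, beside 410 and 2004 of all 19182 genes. The share of members called was thus below that of all genes for SAHA (25.8%) and TSA (35.5%) and above it for A485 (54.8%), siP300 (48.4%) and siComb (45.2%), and no count by itself sets the list apart. Groups lay apart, in either direction, for 54.7% of all genes in SAHA, 52.7% in A485, 68.6% in TSA, 48.3% in siP300, 9.93% in siKat6a, 17.0% in siKat6b and 51.6% in siComb, so that groups lying apart is common in most of these comparisons. In bulk RNA, fewer cells of a type and less RNA per cell cannot be told apart.

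The median log2 change over the tested members was -0.16 for SAHA, 0.06 for A485, 0.02 for TSA, 0.38 for siP300 and 0.74 for siComb, beside 0.06, -0.06, 0.08, 0.13 and 0.09 over all genes tested. The split depends on the scaling. Scaled by library size alone, the median of all genes moved to 0.45 in siP300 and 0.36 in siComb, and the members split into 14 raised and 1 lowered and into 11 and 3. For TSA, DESeq2 size factors moved the median of all genes to 0.22 and the split to 9 raised and 1 lowered, while library size alone gave 7 and 5. No called member changed its sign under these scalings. The shares of all genes called under these scalings are not given here, so these splits describe the list alone. Over the 7 comparisons with a control, 15 members were called in the higher direction only, 6 in the lower direction only, 5 in both and 7 in none. The 6 lower only were Eif2ak1, Phgdh, Psat1, Shmt2, Slc7a1 and Xpot, and the 7 never called were Eif2ak4, Atf5, Cebpb, Aldh1l2, Pck2, Fgf21 and Stc2.

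**Figure D2:**
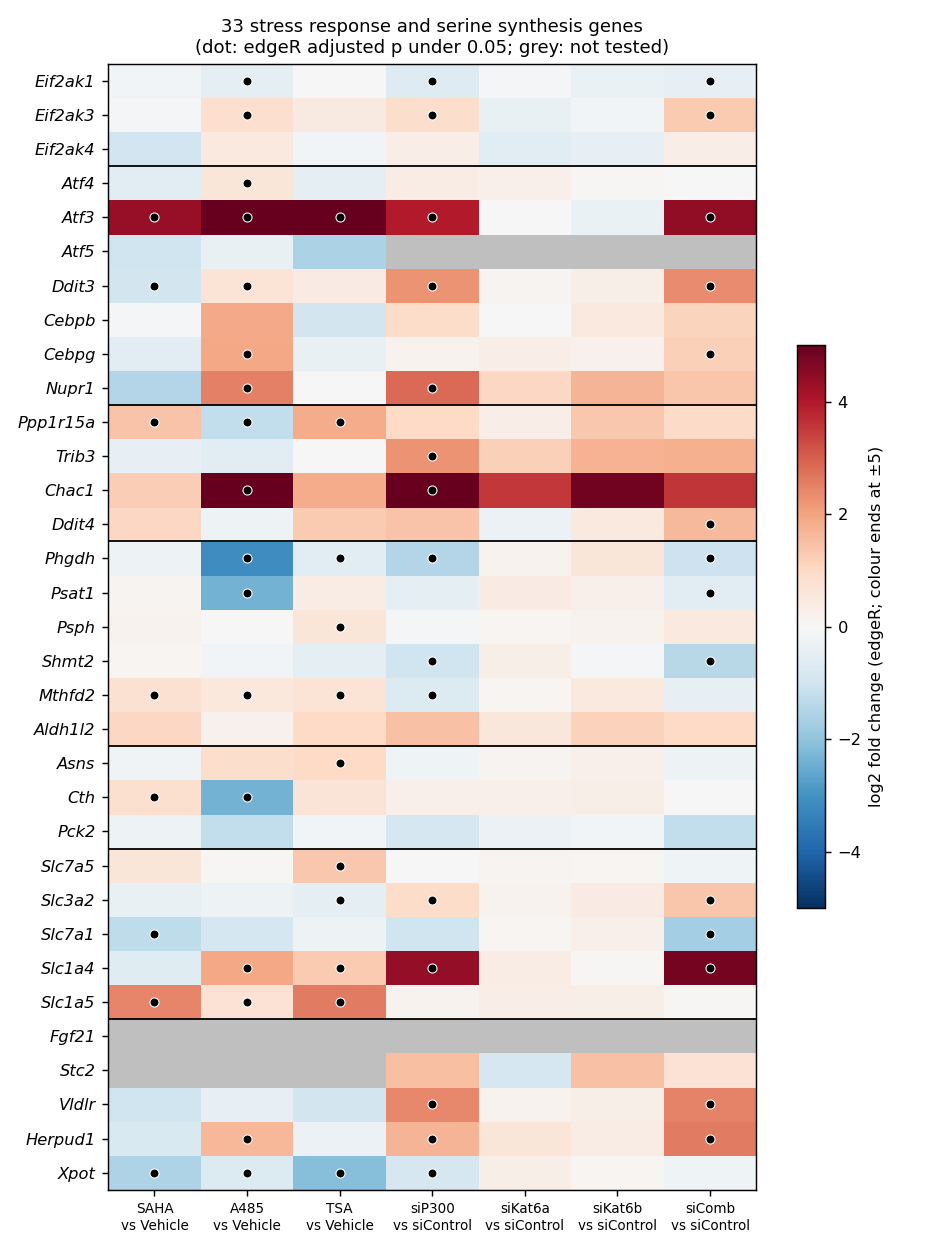
Log2 change of each member (rows, grouped by role) in the 7 comparisons with a control (columns), from edgeR, with marks on the changes at an adjusted p under 0.05. Atf3 is raised in 5 columns, from 3.97 to 7.87, and Phgdh is lowered in 4, while the siKat6a and siKat6b columns hold no mark.

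Of the 3 kinase genes among the members, the PERK gene rose where the HRI gene fell. Eif2ak3 (PERK) read 8.35, 6.99 and 8.94 CPM in Vehicle and 12.3, 20.8 and 9.89 in A485 (log2 0.85 ± 0.30, adjusted p = 0.0305, groups apart). It read 8.35, 8.53 and 7.44 CPM in siControl and 13.2, 10.5 and 20.8 in siP300 (log2 0.88 ± 0.29, adjusted p = 0.027, groups apart). In siComb Eif2ak3 read 23.4, 20.6 and 16 (log2 1.3 ± 0.29, adjusted p = 0.00254, groups apart). Every library of these 3 treated groups lay above every library of its control. The siComb call held in every alternative, whereas the A485 call ended without Vehicle 1, 2 or 3 or A485 2 (adjusted p = 0.0615 to 0.132) and with no filter on low counts or a fit of only the groups compared (adjusted p = 0.0503 to 0.056) and the siP300 call without siControl 1, 2 or 3 or siP300 3 (adjusted p = 0.064 to 0.162) and with no filter on low counts (adjusted p = 0.0531). Eif2ak1 (HRI) read 146, 133 and 151 CPM in Vehicle and 81.8, 107 and 115 in A485 (log2 -0.47 ± 0.15, adjusted p = 0.0208, groups apart). In siControl it read 115, 119 and 112 CPM and in siP300 68.4, 79.4 and 70.6 (log2 -0.65 ± 0.15, adjusted p = 0.00298, groups apart). In siComb Eif2ak1 read 79.1, 97.9 and 86.3 (log2 -0.39 ± 0.15, adjusted p = 0.0435, groups apart). These differences are small: the A485 call ended without Vehicle 1 or 3 or A485 1 or 2 (adjusted p = 0.0572 to 0.159) and with no filter on low counts (adjusted p = 0.109), the siComb call without siControl 1, 2 or 3 or siComb 1 or 3 (adjusted p = 0.0749 to 0.154) and with DESeq2 size factors, library size alone, no filter on low counts or a fit of only the groups compared (adjusted p = 0.0561 to 0.461), and the siP300 call with library size alone (log2 -0.33, adjusted p = 0.0683). Eif2ak1 shares exon bases with Aimp2 and Ankrd61 and Eif2ak3 with Gm43292, all on the opposite strand, and the sources used here do not give the strand setting of the counts. Eif2ak4 (GCN2) did not pass the test in any comparison with a control, and its group means ran from 6.72 CPM in SAHA to 19.9 in siP300. It was called lower in SAHA with a fit of all 27 libraries or without SAHA 1 (adjusted p = 0.0494 and 0.0483).

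Atf4, the central factor of the response, passed the test in 1 of the 7 comparisons with a control, A485, where it was higher. It read 139.8, 139 and 126 CPM in Vehicle and 183, 250.4 and 165 in A485 (log2 0.60 ± 0.21, adjusted p = 0.0284, groups apart). The other groups read 105, 68.2 and 97.5 CPM in SAHA (log2 -0.54 ± 0.21, adjusted p = 0.0551, groups apart) and 90.4, 115 and 76.4 in TSA (log2 -0.46 ± 0.21, adjusted p = 0.0686, groups apart). All SAHA and TSA libraries thus lay below all Vehicle libraries, and all A485 libraries above them. SAHA was called lower with library size alone, a fit of all 27 libraries or a fit of only the groups compared (adjusted p = 0.0237 to 0.045), and TSA with library size alone, a fit of all 27 libraries or without TSA 2 (adjusted p = 0.0246 to 0.0386). The A485 call ended without Vehicle 1, 2 or 3 or A485 2 (adjusted p = 0.0574 to 0.0977). Among siRNA libraries, Atf4 read 95.5, 109.7 and 93.7 CPM in siControl and 145, 133 and 106 in siP300 (log2 0.38 ± 0.18, adjusted p = 0.101, groups overlapping). That difference was called higher with library size alone (log2 0.70, adjusted p = 0.00592), with a filter of 5 CPM in 3 libraries or without siP300 3 (adjusted p = 0.0487 and 0.0438). In siComb Atf4 read 103, 114 and 79.9 (log2 -0.01 ± 0.18, adjusted p = 0.977, groups overlapping). In siKat6a it read 113, 109 and 137 and in siKat6b 106, 95.9 and 113, and neither passed the test (log2 0.27 and 0.07, adjusted p = 1 and 0.94).

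Atf3, a stress-induced factor of the ATF family (chr1:191170296-191218039, minus strand, GRCm38), had the largest log2 change of the members in SAHA, A485 and TSA. It was near 0 in Vehicle, at 0.204, 0.999 and 0 CPM, and read 9.77, 7.23 and 8.56 in SAHA (log2 4.37 ± 0.56, adjusted p = 5.22e-05, groups apart). In A485 it read 72.4, 125 and 94.3 CPM (log2 7.87 ± 0.56, adjusted p = 1.09e-07, groups apart) and in TSA 36.3, 18.1 and 30.8 (log2 6.13 ± 0.55, adjusted p = 6.21e-07, groups apart). The 3 treated groups did not overlap each other: TSA lay above SAHA, and A485 above TSA, at doses that differ. In siControl Atf3 stood at 1.02, 2.78 and 2.48 CPM, in siP300 at 19.4, 41.5 and 37.4 (log2 3.97 ± 0.53, adjusted p = 5.35e-05, groups apart) and in siComb at 50.5, 58.3 and 29.7 (log2 4.45 ± 0.54, adjusted p = 1.39e-05, groups apart). It read 1.24, 0.641 and 4.25 CPM in siKat6a and 2.34, 1.56 and 1.14 in siKat6b, both overlapping siControl. The size of the change against Vehicle rests on few counts there: without Vehicle 2 the log2 change was 6.21 for SAHA, 9.71 for A485 and 7.97 for TSA.

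Ddit3 encodes CHOP, a C/EBP-family factor induced downstream of ATF4. It read 40.2, 54 and 34.9 CPM in Vehicle and 21.7, 18.7 and 26 in SAHA (log2 -0.92 ± 0.23, adjusted p = 0.00645, groups apart). Ddit3 in A485 read 60.2, 80.3 and 63.5 CPM (log2 0.69 ± 0.22, adjusted p = 0.0209, groups apart) and in TSA 43.3, 68.8 and 50.5 (log2 0.39 ± 0.22, adjusted p = 0.145, groups overlapping). All SAHA libraries lay below and all A485 libraries above those of Vehicle, while TSA 2 lay above A485 1 and 3. The A485 call ended without Vehicle 1 or 3 or A485 2 (adjusted p = 0.0508 to 0.106) and with a fit of all 27 libraries (adjusted p = 0.0592). DESeq2 called Ddit3 higher in TSA (log2 0.54, adjusted p = 0.0444). Among siRNA libraries, Ddit3 read 23, 17.3 and 19.3 CPM in siControl and 69.6, 111 and 102 in siP300 (log2 2.26 ± 0.30, adjusted p = 5.21e-05, groups apart). In siComb Ddit3 read 84.8, 132 and 88 (log2 2.36 ± 0.30, adjusted p = 2.25e-05, groups apart). Both calls held in every alternative, all 6 treated libraries being higher than the 3 control libraries. It stood at 17.8, 17.7 and 29.8 CPM in siKat6a and 30.9, 13.5 and 27.6 in siKat6b (log2 0.15 and 0.27, adjusted p = 1 and 0.829). The exons of Ddit3 overlap Mars and Gm4189 on the opposite strand and a second record of the same symbol, so its counts are uncertain to that extent.

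Cebpg, a C/EBP partner of ATF4, read 15.3, 7.99 and 15.3 CPM in Vehicle and 43.5, 52.9 and 46.5 in A485 (log2 1.92 ± 0.27, adjusted p = 5.72e-05, groups apart), and did not pass the test in SAHA or TSA (log2 -0.58 and -0.36). Without Vehicle 2 Cebpg was called lower in SAHA (log2 -0.83, adjusted p = 0.0306). It read 11.2, 13.5 and 13.2 CPM in siControl and 14.7, 11.6 and 15.7 in siP300 (log2 0.16 ± 0.23, adjusted p = 0.611, groups overlapping). In siComb Cebpg read 28.6, 25.7 and 33 (log2 1.2 ± 0.23, adjusted p = 8.39e-04, groups apart). The siComb libraries lay above all libraries of both other groups. Nupr1, a small stress-induced chromatin protein, varied widely within groups: 7.02, 16 and 4.05 CPM in Vehicle and 32.4, 99.5 and 18.7 in A485 (log2 2.5 ± 0.62, adjusted p = 0.0046, groups apart). It read 5.3, 28 and 12.1 CPM in siControl and 81.8, 202 and 33.6 in siP300 (log2 2.83 ± 0.74, adjusted p = 0.00723, groups apart). In siComb it read 25.4, 69 and 25.3 CPM (log2 1.4 ± 0.71, adjusted p = 0.132, groups overlapping) and in siKat6b 101, 13.6 and 32 (log2 1.68 ± 0.71, adjusted p = 0.407, groups overlapping). Nupr1 was called higher in siComb with no filter on low counts or a fit of only the groups compared (adjusted p = 1.72e-08 and 0.0448). A single library was far above the others in A485 (replicate 2), siP300 (replicate 2) and siKat6b (replicate 1). The log2 change was 1.62 without A485 2 and 3.2 without Vehicle 2 in the first comparison, and 1.95 without siP300 2 and 3.62 without siControl 2 in the second, and both calls held. Cebpb and Atf5, a C/EBP factor and a close relative of ATF4, reached at most 3.7 and 2.44 CPM and were called in no comparison with a control. Cebpb was called higher in A485 with a fit of only the groups compared (log2 1.87, adjusted p = 0.0404). Without TSA 1 it was called lower in TSA (log2 -5.82, adjusted p = 0.0152). The remaining TSA libraries had 0 counts of Cebpb, so the size of that change rests on them.

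A485 replicate 2 was the highest of the 3 A485 libraries in Atf4, Atf3, Ddit3, Cebpg, Nupr1, Trib3, Chac1, Asns and Herpud1.

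**Figure D3:**
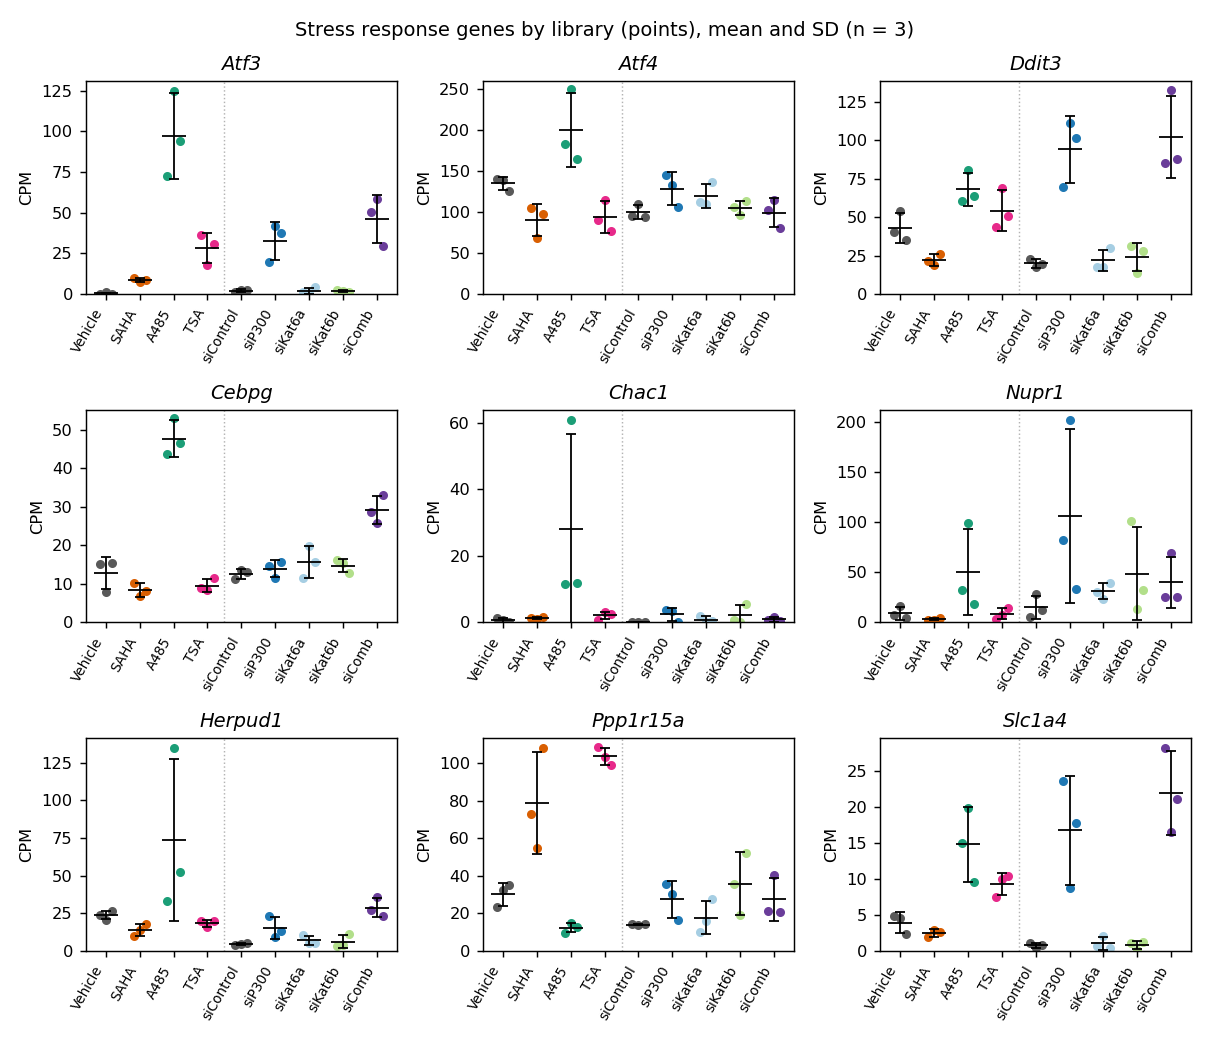
Level in CPM of stress response members in each of the 27 libraries (points), with the mean and SD of each group. Atf3, Ddit3 and Chac1 are higher in A485 and siP300 than in their controls, and A485 replicate 2 is the highest point of its group in several panels, with Chac1 at 60.9 CPM.

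Among the feedback and effector genes the directions differed between agents. Ppp1r15a encodes GADD34, the phosphatase subunit that reverses eIF2 phosphorylation. It read 23.2, 32.5 and 34.9 CPM in Vehicle and 73, 55.1 and 108 in SAHA (log2 1.42 ± 0.24, adjusted p = 5.31e-04, groups apart). Ppp1r15a in A485 read 9.75, 14.7 and 12.9 CPM (log2 -1.25 ± 0.25, adjusted p = 9.83e-04, groups apart) and in TSA 108, 103 and 99.3 (log2 1.84 ± 0.25, adjusted p = 2.24e-05, groups apart). The deacetylase inhibitors lay above Vehicle and A485 below it, with no overlap of any of these groups with Vehicle. Among siRNA libraries, Ppp1r15a read 14.3, 13.7 and 14.3 CPM in siControl and 35.9, 30.3 and 16.8 in siP300 (log2 1.0 ± 0.41, adjusted p = 0.0658, groups apart). In siComb Ppp1r15a read 21.4, 40.4 and 20.6 (log2 0.96 ± 0.41, adjusted p = 0.0727, groups apart). Both groups were called higher with library size alone, DESeq2 or no filter on low counts (adjusted p = 0.00163 to 0.0342). Both were also called higher with a fit of all 27 libraries or of only the groups compared (adjusted p = 0.0153 to 0.0439). So was siP300 with a filter of 5 CPM in 3 libraries or without siP300 3 (adjusted p = 0.0485 and 0.0332). Ppp1r15a shares exon bases with Tulp2 on the opposite strand. Chac1, which degrades glutathione, was at 1.22, 0.599 and 0 CPM in Vehicle and 11.4, 60.9 and 11.9 in A485 (log2 5.51 ± 0.85, adjusted p = 1.29e-04, groups apart). Its log2 change was 4.34 without A485 2 and 6.47 without Vehicle 1. Among siRNA libraries, Chac1 had only 2 counts over the 3 siControl libraries, both in siControl 3, against 84 in siP300, 26 in siKat6a, 68 in siKat6b and 30 in siComb. The ratio of siP300 to siControl in summed scaled counts was 33.7, with an exact 95% Clopper-Pearson interval from 9.03 to 282, which covers counting error only and would be wider if the 2 counts are a single read pair. On the same 2 control counts the ratio was 34.1 (9.09 to 288) in siKat6b, 13.2 (3.31 to 115) in siKat6a and 13.6 (3.44 to 117) in siComb. Chac1 did not pass the edgeR test in siKat6a, siKat6b (adjusted p = 0.25) or siComb (adjusted p = 0.083). With DESeq2 or no filter on low counts it was called higher in siComb (adjusted p = 0.0377 and 0.00733). Chac1 passed the test in siP300 (adjusted p = 0.0185, groups apart), a call that ended without siControl 1 or 2 (adjusted p = 0.069 to 0.0719), and its siP300 libraries read 3.71, 3.41 and 0.258 CPM.

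Trib3, a pseudokinase that restrains ATF4 and DDIT3, read 0.815, 1.19 and 0.191 CPM in siControl and 1.69, 3.22 and 5.41 in siP300 (log2 2.23 ± 0.76, adjusted p = 0.0303, groups apart), and the call ended without siControl 1 or 3 or siP300 3 (adjusted p = 0.0777 to 0.12). In A485 it read 2.69, 12.8 and 1.49 CPM against 8.55, 9.19 and 7.24 in Vehicle, with replicate 2 above and the others below the controls (log2 -0.54 ± 0.56, adjusted p = 0.463, groups overlapping). Without A485 2 the log2 change was -1.87 (adjusted p = 0.00233), a lower call that this library decides. Ddit4, an inhibitor of mTORC1, read 0.917, 4.76 and 1.14 CPM in siControl and 8.6, 3.98 and 5.67 in siP300 (log2 1.43 ± 0.58, adjusted p = 0.0653, groups overlapping). Without siControl 2, the highest control, siP300 was called higher (log2 2.56, adjusted p = 0.00644), as with library size alone (adjusted p = 0.0297) and DESeq2 (adjusted p = 0.0357). In siComb Ddit4 read 7.8, 6.11 and 7.46 (log2 1.64 ± 0.59, adjusted p = 0.0369, groups apart). The siComb call ended without siControl 1 or 3 or siComb 1 or 3 (adjusted p = 0.0682 to 0.148), and without siControl 2 the log2 change was 2.77. Ddit4 was at most 8.6 CPM in any library.

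In A485 the first enzymes of serine synthesis fell where Atf3, Ddit3 and Cebpg rose. Phgdh, the first and committed enzyme of the pathway (chr3:98313170-98339990, minus strand), read 162, 288 and 197 CPM in Vehicle and 172, 160.4 and 201 in SAHA (log2 -0.24 ± 0.21, adjusted p = 0.393, groups overlapping). Phgdh in A485 read 18.5, 28.3 and 27.1 CPM (log2 -3.1 ± 0.23, adjusted p = 1.42e-07, groups apart) and in TSA 137, 146 and 135 (log2 -0.57 ± 0.21, adjusted p = 0.0297, groups apart). Every A485 library lay far below every Vehicle library. The call of the small TSA difference ended without Vehicle 2 or TSA 1, 2 or 3 (adjusted p = 0.064 to 0.198) and with DESeq2 size factors, DESeq2, a filter of 5 CPM in 3 libraries, a fit of all 27 libraries or a fit of only the groups compared (adjusted p = 0.0503 to 0.102). Among siRNA libraries, Phgdh read 146, 156 and 86.2 CPM in siControl and 64.2, 34.5 and 41.5 in siP300 (log2 -1.45 ± 0.29, adjusted p = 0.0012, groups apart). In siComb Phgdh read 52.4, 62.6 and 74.2 (log2 -1.04 ± 0.29, adjusted p = 0.00955, groups apart). All siP300 and siComb libraries lay below the lowest siControl library. It read 136, 127 and 169 CPM in siKat6a and 283, 135 and 177 in siKat6b (log2 0.61 ± 0.28, adjusted p = 0.46, groups overlapping).

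Psat1, the aminotransferase of the next step (chr19:15904678-15947337, minus strand), read 447, 700.2 and 503 CPM in Vehicle and 590.1, 501 and 656 in SAHA (log2 0.12 ± 0.23, adjusted p = 0.721, groups overlapping). Psat1 in A485 read 69.2, 139.96 and 103 CPM (log2 -2.37 ± 0.24, adjusted p = 3.21e-06, groups apart) and in TSA 588, 782 and 697 (log2 0.39 ± 0.23, adjusted p = 0.163, groups overlapping). Of these groups, only A485 lay wholly below Vehicle. In siControl Psat1 read 488, 459.8 and 343 CPM and in siP300 379, 302 and 263 (log2 -0.43 ± 0.17, adjusted p = 0.0532, groups overlapping). The siP300 difference was called lower with DESeq2 or without siControl 3 or siP300 1 (adjusted p = 0.0141 to 0.0302). In siComb Psat1 read 315, 274 and 303 (log2 -0.54 ± 0.17, adjusted p = 0.019, groups apart). That siComb call ended without siControl 1 or 2 or siComb 2 (adjusted p = 0.0689 to 0.0914) and with library size alone, no filter on low counts or leaving out the 4 MERVL-high libraries (adjusted p = 0.053 to 0.185). Psph, the phosphatase of the last step, did not pass the test in A485. It read 96.5, 101 and 92.2 CPM in Vehicle, 70.4, 104 and 105 in A485 (log2 -0.02 ± 0.16, adjusted p = 0.953, groups overlapping) and 141, 135 and 147 in TSA (log2 0.61 ± 0.16, adjusted p = 0.00458, groups apart), so TSA was the high group. SAHA read 99.4, 108 and 107 CPM (log2 0.16 ± 0.16, adjusted p = 0.475, groups overlapping). Among siRNA libraries, Psph read 50.01, 43.7 and 42.7 CPM in siControl and 33.4, 58.3 and 33.4 in siP300 (log2 -0.11 ± 0.24, adjusted p = 0.756, groups overlapping). In siComb Psph read 55.1, 81.4 and 54.4 (log2 0.49 ± 0.24, adjusted p = 0.121, groups apart). Library size alone called it higher there (log2 0.74, adjusted p = 0.0139). Psph shares exon bases with a Cct6a transcript on the opposite strand.

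The mitochondrial one-carbon enzymes gave mixed changes. Shmt2, which splits serine into glycine and a folate-bound carbon, read 48.2, 41.6 and 41.1 CPM in Vehicle and 49.3, 51 and 37.8 in SAHA (log2 0.12 ± 0.21, adjusted p = 0.704, groups overlapping). Shmt2 in A485 read 30.8, 43.8 and 41.3 CPM (log2 -0.15 ± 0.21, adjusted p = 0.602, groups overlapping) and in TSA 28.5, 37 and 23.5 (log2 -0.50 ± 0.21, adjusted p = 0.0587, groups apart). With library size alone or without TSA 2, Shmt2 was called lower in TSA (adjusted p = 0.0303 and 0.0264). In siControl it read 27.1, 23.4 and 13.9 CPM and in siP300 15.7, 6.26 and 10.1 (log2 -0.99 ± 0.33, adjusted p = 0.0285, groups overlapping). In siComb Shmt2 read 7.29, 6.57 and 11 (log2 -1.37 ± 0.34, adjusted p = 0.00449, groups apart). All siComb libraries were lower than all control libraries, and the siComb call held in every alternative, while the siP300 call ended without siControl 1 or 2 or siP300 2 or 3 (adjusted p = 0.0818 to 0.125) and with library size alone, leaving out the 4 MERVL-high libraries or a fit of only the groups compared (adjusted p = 0.059 to 0.134). Shmt2 shares exon bases with Ndufa4l2 on the opposite strand. Mthfd2, the mitochondrial dehydrogenase that follows, read 85.5, 75.7 and 51.3 CPM in Vehicle and 101, 125 and 129.5 in SAHA (log2 0.78 ± 0.20, adjusted p = 0.00829, groups apart). Mthfd2 in A485 read 77.5, 115 and 106 CPM (log2 0.52 ± 0.20, adjusted p = 0.0467, groups overlapping) and in TSA 103, 111 and 112 (log2 0.68 ± 0.20, adjusted p = 0.00977, groups apart). All SAHA and TSA libraries lay above Vehicle, and the A485 call ended without Vehicle 2 or 3 or A485 2 or 3 (adjusted p = 0.0746 to 0.245) and with a fit of all 27 libraries or a fit of only the groups compared (adjusted p = 0.0608 to 0.0718). Among siRNA libraries, Mthfd2 read 32.1, 24.8 and 22.1 CPM in siControl and 18.4, 14.9 and 15.1 in siP300 (log2 -0.69 ± 0.22, adjusted p = 0.025, groups apart). In siComb Mthfd2 read 14.9, 24.1 and 19.7 (log2 -0.43 ± 0.22, adjusted p = 0.144, groups overlapping). The siP300 call, in the lower direction, ended without siControl 1 or siP300 2 or 3 (adjusted p = 0.0617 to 0.125) and with library size alone or a fit of only the groups compared (adjusted p = 0.0528 to 0.219). Aldh1l2, a mitochondrial formyl-folate dehydrogenase, stayed at or below 5.27 CPM and was called in no comparison with a control. A fit of only the groups compared called it higher in TSA (log2 1.07, adjusted p = 0.0391).

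**Figure D4:**
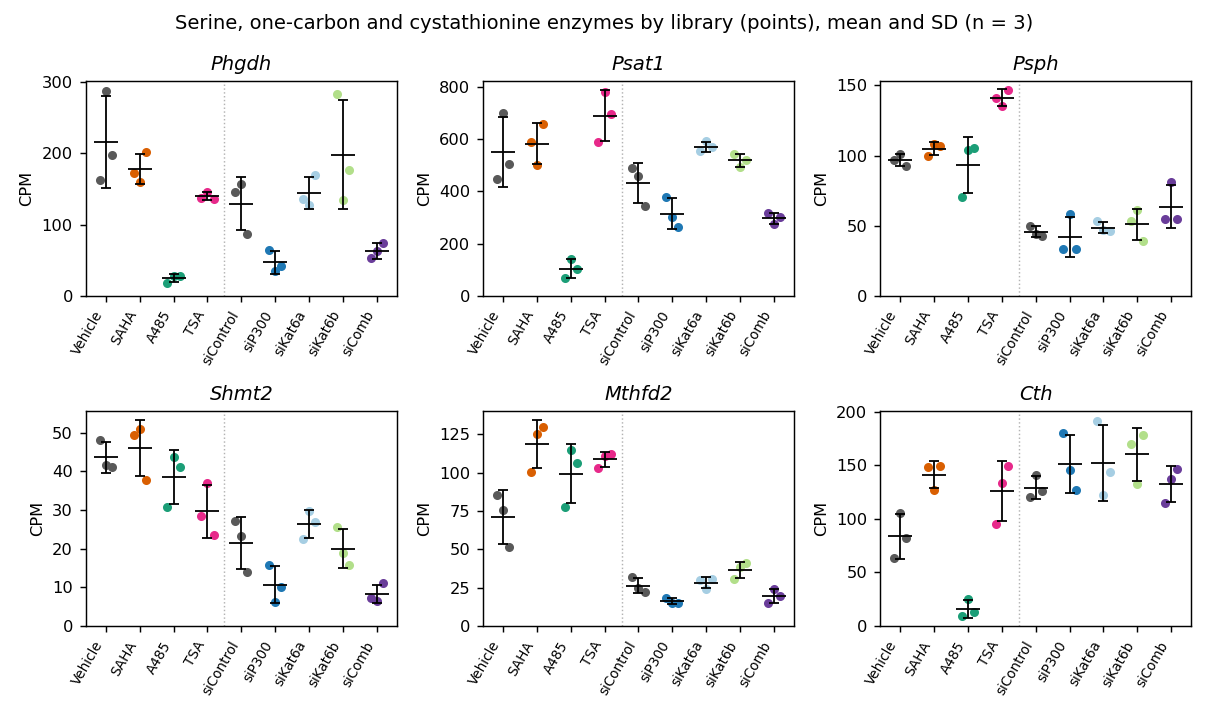
Level in CPM of Phgdh, Psat1, Psph, Shmt2, Mthfd2 and Cth in each of the 27 libraries (points), with the mean and SD of each group. Phgdh falls from 216 ± 64.8 CPM in Vehicle to 24.6 ± 5.35 in A485 and Psat1 from 549.9 ± 133 to 104 ± 35.4, while the Psph points of A485 overlap those of Vehicle.

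In siKat6a and siKat6b the serine enzymes did not pass the test. Over Asns, Psat1, Psph, Shmt2 and Mthfd2 the log2 change ran from 0.11 to 0.42 in siKat6a (adjusted p = 1 for each) and from -0.10 to 0.48 in siKat6b (adjusted p = 0.464 to 0.957). Psat1 read 553, 591 and 567 CPM in siKat6a and 544, 495 and 518 in siKat6b, above all siControl libraries. Mthfd2 read 29.9, 23.9 and 30.6 and 30.8, 38.3 and 40.9 CPM, Shmt2 22.5, 29.7 and 27 and 25.5, 18.9 and 15.7, and Psph 53.2, 46.6 and 45.9 and 53.2, 60.9 and 39.1.

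Asns, the asparagine synthetase and a classical ATF4 target, read 128, 69.1 and 74.1 CPM in Vehicle and 66.9, 67.8 and 102 in SAHA (log2 -0.16 ± 0.40, adjusted p = 0.782, groups overlapping). Asns in A485 read 65, 288 and 136 CPM (log2 0.88 ± 0.40, adjusted p = 0.0852, groups overlapping) and in TSA 144, 193 and 182 (log2 1.0 ± 0.40, adjusted p = 0.0439, groups apart). TSA lay above Vehicle, but the call ended without Vehicle 2 or 3 or TSA 1, 2 or 3 (adjusted p = 0.0528 to 0.138) and with library size alone (adjusted p = 0.0589), and A485 replicate 1 lay below the lowest Vehicle library while replicate 2 was the highest of the 27. In siControl Asns read 37.9, 34.7 and 39.7 CPM and in siP300 34.3, 29.4 and 31.6 (log2 -0.22 ± 0.24, adjusted p = 0.506, groups apart). In siComb Asns read 22, 42.9 and 27.9 (log2 -0.27 ± 0.24, adjusted p = 0.403, groups overlapping). It read in siKat6a 56.7, 33.4 and 32.7 and in siKat6b 46.4, 39.7 and 46.7. Among the comparisons with a control, Asns, whose promoter window is printed above, was called in TSA. It was also called higher in A485 under 4 alternatives: with DESeq2 (adjusted p = 0.0395), with no filter on low counts (adjusted p = 4.10e-05), without Vehicle 1 (adjusted p = 0.0388) and without A485 1 (log2 1.34, adjusted p = 0.00459). Cth, which makes cysteine from cystathionine, fell in A485: it read 63.3, 106 and 82 CPM in Vehicle and 148, 127 and 149 in SAHA (log2 0.79 ± 0.29, adjusted p = 0.048, groups apart). Cth in A485 read 9.75, 25.6 and 12.7 CPM (log2 -2.36 ± 0.31, adjusted p = 3.12e-05, groups apart) and in TSA 95, 134 and 149 (log2 0.65 ± 0.29, adjusted p = 0.0677, groups overlapping). The A485 libraries were far below and the SAHA libraries above Vehicle, and the SAHA call ended without Vehicle 1 or 3 or SAHA 1, 2 or 3 (adjusted p = 0.0647 to 0.167). The TSA difference was called higher with DESeq2 size factors, DESeq2 or a fit of only the groups compared (adjusted p = 0.0169 to 0.0334). It was also called with no filter on low counts or a filter of 5 CPM in 3 libraries (adjusted p = 0.00828 and 0.0375). Without Vehicle 2 or TSA 1 it was called too (adjusted p = 0.0424 and 0.0434). Among siRNA libraries, Cth was called in no comparison (log2 0.04 in siComb and 0.25 in siP300), though library size alone called it higher in siP300 (adjusted p = 0.0217). Pck2, the mitochondrial enzyme that makes phosphoenolpyruvate, read 10.8, 11.4 and 4.9 CPM in Vehicle and 5.55, 3.54 and 2.05 in A485 (log2 -1.24 ± 0.51, adjusted p = 0.0613, groups overlapping). It was called lower in A485 with DESeq2 (adjusted p = 0.0406) and under further alternatives given below.

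Amino acid transporters included some of the largest changes. Slc1a4, a neutral amino acid transporter that carries serine (chr11:20302180-20332713, minus strand), read 1.12, 0.397 and 0.859 CPM in siControl and 23.6, 8.72 and 17.8 in siP300 (log2 4.4 ± 0.63, adjusted p = 8.83e-05, groups apart). In siComb Slc1a4 read 28.1, 16.5 and 21.1 (log2 4.77 ± 0.64, adjusted p = 3.33e-05, groups apart). Its level was low in siKat6a and siKat6b too, at 0.619, 2.14 and 0.369 and 1.06, 0.195 and 1.23 CPM. In the inhibitor family it read 4.89, 4.6 and 2.34 CPM in Vehicle and 1.95, 2.93 and 2.61 in SAHA (log2 -0.61 ± 0.38, adjusted p = 0.236, groups overlapping). Slc1a4 in A485 read 15, 19.9 and 9.52 CPM (log2 1.93 ± 0.37, adjusted p = 6.76e-04, groups apart) and in TSA 7.48, 10.01 and 10.4 (log2 1.29 ± 0.37, adjusted p = 0.00797, groups apart). A485, TSA, siP300 and siComb were the high groups. Slc1a5, the glutamine and neutral amino acid transporter ASCT2, rose in the deacetylase inhibitors: 23.8, 15 and 15.5 CPM in Vehicle, 91.6, 90.9 and 106 in SAHA (log2 2.44 ± 0.21, adjusted p = 1.72e-06, groups apart) and 104, 107 and 103 in TSA (log2 2.59 ± 0.21, adjusted p = 2.69e-07, groups apart). In A485 it read 24.5, 36 and 26.7 CPM (log2 0.71 ± 0.20, adjusted p = 0.0107, groups apart), a call that ended without Vehicle 2 or 3 (adjusted p = 0.0578 to 0.0593) and with a fit of all 27 libraries (adjusted p = 0.0868). It was called in no siRNA comparison, with siP300 at 22.1, 11.5 and 36.1 CPM and siControl at 24.6, 24 and 13.2.

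Slc3a2, the heavy chain, read 119, 140.3 and 137 CPM in siControl and 217, 295 and 226 in siP300 (log2 0.92 ± 0.19, adjusted p = 0.00157, groups apart). In siComb Slc3a2 read 269, 432 and 320.1 (log2 1.37 ± 0.19, adjusted p = 5.14e-05, groups apart). In the inhibitor family it read 174, 185 and 204 CPM in Vehicle and 125, 110.2 and 145 in TSA (log2 -0.50 ± 0.19, adjusted p = 0.0326, groups apart), and that call ended without Vehicle 2 or 3 or TSA 1 or 2 (adjusted p = 0.0593 to 0.136) and with DESeq2 size factors, DESeq2 or a filter of 5 CPM in 3 libraries (adjusted p = 0.093 to 0.125). Its light chain partner Slc7a5 (LAT1) read 11.6, 11.2 and 11.1 CPM in Vehicle and 27.9, 35.6 and 19.4 in TSA (log2 1.35 ± 0.34, adjusted p = 0.00363, groups apart), and did not pass the test in siP300 or siComb (log2 0.03 and -0.21). In TSA the light chain was thus higher and the heavy chain lower than in Vehicle, whereas in siP300 and siComb the heavy chain was called and the light chain was not. Slc7a1, the cationic amino acid transporter CAT1, read 13, 13.3 and 13.7 CPM in siControl and 3.71, 8.91 and 7.22 in siP300 (log2 -1.0 ± 0.40, adjusted p = 0.06, groups apart). The siP300 difference was called lower with DESeq2, no filter on low counts or a fit of only the groups compared (adjusted p = 0.0316 to 0.0494). It was also called without the 4 MERVL-high libraries or without siP300 2 (adjusted p = 0.0202 and 0.0385). In siComb Slc7a1 read 1.86, 4.63 and 6.01 (log2 -1.68 ± 0.41, adjusted p = 0.00442, groups apart). In Vehicle it read 12.8, 10.6 and 6.81 CPM and in SAHA 3.42, 4.88 and 3.8 (log2 -1.28 ± 0.47, adjusted p = 0.0496, groups apart), a call that ended without Vehicle 1 or 2 or SAHA 1, 2 or 3 (adjusted p = 0.0722 to 0.154) and with DESeq2 size factors, library size alone or a filter of 5 CPM in 3 libraries (adjusted p = 0.0541 to 0.0608).

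Of the remaining members, Xpot, the nuclear exporter of tRNA, fell in all 3 inhibitor groups. It read 87.4, 102 and 93.6 CPM in Vehicle and 31, 31.3 and 32.8 in SAHA (log2 -1.54 ± 0.16, adjusted p = 7.21e-06, groups apart). Xpot in A485 read 56.1, 55 and 62.2 CPM (log2 -0.68 ± 0.15, adjusted p = 0.00243, groups apart) and in TSA 18.1, 22.8 and 20.5 (log2 -2.14 ± 0.16, adjusted p = 1.42e-07, groups apart). The 3 libraries within each of these groups lay close together, and no group overlapped another. In siControl it read 75.9, 82.8 and 85.5 CPM and in siP300 53.1, 36.2 and 46.7 (log2 -0.83 ± 0.19, adjusted p = 0.00354, groups apart). In siComb Xpot read 76.9, 48.7 and 85.3 (log2 -0.21 ± 0.19, adjusted p = 0.399, groups overlapping). The Xpot siP300 call ended with library size alone (log2 -0.50, adjusted p = 0.0639). Herpud1, a membrane protein of the endoplasmic reticulum that takes part in degradation of misfolded proteins, read 24, 20.8 and 26.4 CPM in Vehicle and 33.3, 135 and 52.6 in A485 (log2 1.66 ± 0.39, adjusted p = 0.00327, groups apart). The other inhibitor groups read 9.77, 13.7 and 17.6 CPM in SAHA (log2 -0.76 ± 0.40, adjusted p = 0.155, groups apart) and 19.6, 15.6 and 19.9 in TSA (log2 -0.31 ± 0.39, adjusted p = 0.526, groups apart). Without A485 2 its log2 change in A485 was 0.96 (adjusted p = 0.0136). In siControl Herpud1 read 4.28, 4.56 and 5.34 CPM and in siP300 23.3, 9.29 and 13.5 (log2 1.72 ± 0.45, adjusted p = 0.00781, groups apart). In siComb Herpud1 read 27.5, 35.5 and 22.9 (log2 2.6 ± 0.46, adjusted p = 3.92e-04, groups apart). All 6 treated libraries were above all control libraries. Vldlr, a lipoprotein receptor, read 1.63, 1.39 and 1.34 CPM in siControl and 7.08, 5.69 and 10.4 in siP300 (log2 2.42 ± 0.39, adjusted p = 2.28e-04, groups apart). In siComb Vldlr read 7.96, 10.2 and 6.01 (log2 2.46 ± 0.39, adjusted p = 1.55e-04, groups apart). Fgf21 had 0 counts in 21 of 27 libraries and reached 2.3 CPM in TSA 1, and Stc2, a secreted glycoprotein, reached 3.4 CPM in siKat6b 1.

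Of the 9 tested members with a CARE match, 5 rose in A485, 7 in siP300, 4 in siComb, 3 in TSA and 1 in SAHA, and 0 fell. That 0 depends on the processing. Trib3 was called lower in A485 without A485 2. Pck2 was called lower there with DESeq2 (adjusted p = 0.0406), no filter on low counts or a fit of only the groups compared (adjusted p = 0.0255 and 0.0368). It was also called lower there without Vehicle 3 or A485 1 (adjusted p = 0.0258 and 0.0426), and in siComb without siControl 3 (adjusted p = 0.0421). Nupr1 was called lower in SAHA without Vehicle 3 (adjusted p = 0.0452), and Herpud1 there in a fit of only the groups compared (adjusted p = 0.0373). With no filter on low counts both were called lower in SAHA (adjusted p = 3.66e-04 and 0.0382). Of all genes tested, the shares higher and lower were 21.4% and 24.2% in A485, 19.7% and 15.7% in siP300, 19.6% and 17.1% in siComb, 31.6% and 26.6% in TSA and 20.2% and 14.0% in SAHA. Of the 18 tested members with a promoter but no match, 5 rose and 5 fell in A485, 3 rose and 5 fell in siP300, and 5 rose and 5 fell in siComb. In TSA the latter counts were 3 and 3 and in SAHA 2 and 3. Phgdh, Psat1, Xpot and Eif2ak1, which fell in A485, held no match in this window, and nor did Atf4, Ddit3 and Cebpg, which rose. These counts describe the list, and the comparisons in each family share their control libraries. The siP300 and A485 log2 changes stand side by side as 3.97 and 7.87 for Atf3, 2.83 and 2.5 for Nupr1, 1.72 and 1.66 for Herpud1, and -1.45 and -3.1 for Phgdh, from families with controls of their own.

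A485 was also set against each deacetylase inhibitor, at doses that differ. Against SAHA, A485 was higher in 12 and lower in 5 of 31 members, beside 54.4% (22.5% higher and 31.9% lower) of all genes. Against TSA it was higher in 8 and lower in 8, beside 63.5% (27.4% higher and 36.1% lower). The called shares were 54.8% and 51.6% of the 31 members. The groups lay apart for 60.3% and 66.1% of all genes. Atf4 was higher in A485 than in SAHA (log2 1.14 ± 0.21, adjusted p = 3.66e-04, groups apart) and than in TSA (log2 1.06 ± 0.21, adjusted p = 5.07e-04, groups apart). Ppp1r15a was lower than in SAHA (log2 -2.66 ± 0.26, adjusted p = 1.37e-06, groups apart) and than in TSA (log2 -3.09 ± 0.26, adjusted p = 2.47e-07, groups apart). Phgdh showed the same order (log2 -2.86 ± 0.22 and -2.53 ± 0.22, adjusted p = 2.15e-07 and 3.55e-07), as did Psat1 (log2 -2.49 and -2.76). Cebpg was higher in A485 than in either (log2 2.5 and 2.28), and so was Nupr1 (log2 3.96 and 2.49), whose values without A485 2 were 3.05 and 1.63. In siComb against siP300, 1 of 31 members passed, Cebpg (log2 1.04 ± 0.23, adjusted p = 0.046, groups apart), beside 0.787% (0.511% higher and 0.276% lower) of all genes, and with the replicate number as a block 0 members passed (adjusted p of Cebpg = 0.0893). Groups lay apart for 15.8% of all genes in that comparison. The Cebpg call also ended without siP300 1, 2 or 3 or siComb 1, 2 or 3 (adjusted p = 0.0697 to 0.127) and with library size alone, leaving out the 4 MERVL-high libraries or a fit of only the groups compared (adjusted p = 0.0921 to 0.346).

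The rest of the pathway was read from 5 further lists, whose counts stand beside shares higher and lower over all genes of 20.2% and 14.0% in SAHA, 21.4% and 24.2% in A485, 31.6% and 26.6% in TSA, 19.7% and 15.7% in siP300 and 19.6% and 17.1% in siComb. Of 19 cytosolic tRNA synthetases, which charge tRNAs and include known ATF4 targets, the numbers higher and lower were 1 and 3 in SAHA, 2 and 8 in A485, 1 and 13 in TSA, 0 and 12 in siP300 and 0 and 6 in siComb. In siP300 and siComb the lower calls depend on the scaling: library size alone left 0 higher and 2 lower in siP300 and 1 and 1 in siComb. Iars stood against that direction in TSA, at 734 ± 32.4 CPM against 84.3 ± 9.53 (log2 3.18 ± 0.23, adjusted p = 8.69e-08), and in SAHA, at 357 ± 114 CPM against 84.3 ± 9.53 (log2 2.12 ± 0.22, adjusted p = 7.40e-06). Of 19 other serine and one-carbon genes tested with inhibitors (20 with siRNAs), the numbers higher and lower were 1 and 6 in SAHA, 3 and 11 in A485, 4 and 9 in TSA, 2 and 7 in siP300 and 1 and 7 in siComb. With library size alone they were 5 and 6 in siP300 and 3 and 3 in siComb. The shares over all genes given above are from the main fit and do not belong to the counts with library size alone. In A485 the glycine cleavage genes Gcsh and Gldc stood at 39.5 ± 5.98 CPM against 349 ± 91.5 (log2 -3.11 ± 0.21, adjusted p = 6.50e-08) and 24.8 ± 8.79 CPM against 167 ± 29.96 (log2 -2.72 ± 0.27, adjusted p = 2.16e-06). Bhmt, which remethylates homocysteine with betaine, stood at 10.7 ± 6.06 CPM against 1555 ± 224 (log2 -7.16 ± 0.57, adjusted p = 2.99e-07).

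Of 21 further ATF4 targets and partners tested with inhibitors and 22 with siRNAs, the numbers higher and lower were 3 and 3 in SAHA, 8 and 4 in A485, 8 and 3 in TSA, 6 and 1 in siP300 and 5 and 1 in siComb. Ero1l, an oxidase of the endoplasmic reticulum, stood at 130.4 ± 29 CPM against 13.3 ± 0.574 in siComb (log2 3.29 ± 0.22, adjusted p = 9.70e-08), 96.7 ± 3.93 CPM against 13.3 ± 0.574 in siP300 (log2 2.88 ± 0.22, adjusted p = 4.11e-07) and 138 ± 27.3 CPM against 13.5 ± 3.1 in TSA (log2 3.42 ± 0.29, adjusted p = 3.88e-07). Of 26 endoplasmic reticulum stress genes the numbers were 3 and 4 in SAHA, 4 and 9 in A485, 9 and 5 in TSA, 11 and 2 in siP300 and 16 and 1 in siComb. Dnajc3, an inhibitor of PERK, stood at 209 ± 21.9 CPM against 39.6 ± 9.13 in siP300 (log2 2.41 ± 0.23, adjusted p = 2.61e-06) and 319.8 ± 68.2 CPM against 39.6 ± 9.13 in siComb (log2 3.02 ± 0.24, adjusted p = 2.40e-07). Of 15 genes of the eIF2 axis the numbers were 0 and 3 in SAHA, 4 and 6 in A485, 2 and 7 in TSA, 1 and 4 in siP300 and 2 and 5 in siComb. Impact, an inhibitor of GCN2 activation and an imprinted gene, stood at 345 ± 68.2 CPM against 43.7 ± 13.5 in A485 (log2 3.01 ± 0.32, adjusted p = 4.84e-06) and 161 ± 29.4 CPM against 32.6 ± 1.97 in siP300 (log2 2.32 ± 0.20, adjusted p = 7.41e-07). It stood at 367 ± 65 CPM against 32.6 ± 1.97 in siComb (log2 3.49 ± 0.20, adjusted p = 2.92e-08), but at 13 ± 6.98 CPM against 43.7 ± 13.5 in TSA (log2 -1.69 ± 0.32, adjusted p = 5.03e-04). Eif2s2, the beta subunit of eIF2, stood at 1125 ± 201 CPM against 5265 ± 269 in A485 (log2 -2.19 ± 0.15, adjusted p = 1.03e-07) and 1964 ± 439.6 CPM against 5294 ± 439.5 in siComb (log2 -1.43 ± 0.18, adjusted p = 2.18e-05). Eif2ak2, of the same list, stood at 18.6 ± 5.75 CPM in A485, 3.33 ± 0.437 in SAHA and 4.46 ± 0.892 in TSA against 2.26 ± 1.34 in Vehicle. Its level was 3.61 ± 1.65 CPM in siP300 and 6.15 ± 3.16 in siComb against 2.07 ± 0.251 in siControl. In siKat6a and siKat6b it was 1.83 ± 0.468 and 2.19 ± 0.432 CPM. In siKat6a and siKat6b 0 genes of these 5 lists passed the edgeR test.

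**Figure D5:**
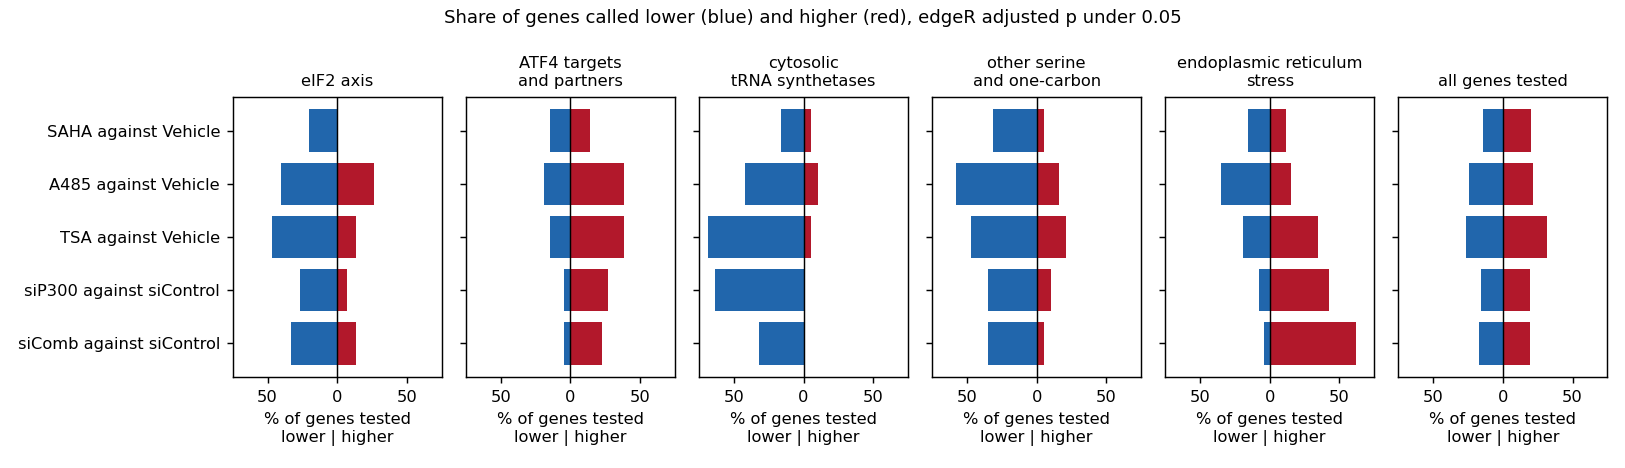
Share of the genes tested that were called higher and lower (edgeR adjusted p under 0.05) in the 5 further lists and over all genes tested. The comparisons shown are SAHA, A485 and TSA against Vehicle and siP300 and siComb against siControl. In siComb the endoplasmic reticulum stress list has 16 higher and 1 lower of 26, and in TSA the tRNA synthetases have 1 higher and 13 lower of 19.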

How the data were processed

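The values deposited by the authors are raw read counts per gene. The submitters' processing notes list STAR 2.7.11a, featureCounts, Subread 2.0.6, MultiQC and Scanpy 1.8.2, and the builds mm10 and GRCh38, with no role for either build. The sources used here do not give how strand and read pairs were treated. Of the nonzero counts 83.3 to 85.9% per library were even, as would arise if both reads of a pair were counted, and counting intervals and floors are then too narrow. Sample files and series-wide table were identical for 27 of 27 libraries. The replicate pairs of each group, 27 in all, differed beyond sampling noise (chi-square per degree of freedom 8.35 to 49.2).

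Titles gave the groups. Tests used edgeR 4.0.16 (R 4.3.3, quasi-likelihood test, TMM scaling, filterByExpr with a minimum count of 10), in 1 fit per family of 12 or 15 libraries, with Benjamini-Hochberg adjustment over all genes of a comparison and a threshold of 0.05. Standard errors are the log2 change divided by the square root of F. CPM values were scaled by TMM over all 27 libraries. The members and lists were chosen with earlier results of these data known. Every member may be named: values per library are given for Atf4, Ddit3, Asns, Phgdh, Psat1, Psph, Shmt2 and Mthfd2, and in each comparison for up to 8 members by size of change that passed the test at a mean level of 10 CPM or more, groups apart. Up to 3 genes per further list and comparison, by lowest adjusted p at 10 CPM or more, were open to naming. Members given beyond this rule (low genes such as Chac1 in siRNA libraries, Trib3, Ddit4, Vldlr and Pck2) were chosen after their values were seen. So was Eif2ak2, a gene of a further list. Alternatives were other scalings, DESeq2 1.42.0, other filters, other sets of libraries, a replicate block and leaving out each library. Deviations of same-numbered libraries from their group means correlated at 0.15, 0.52 and 0.12 between siComb and siP300, so the numbers were taken to pair these libraries by the data, and not all 3 exceeded 0.1 in any other comparison (-0.23 to 0.27). The fitting code was tested on simulated data, for SAHA against Vehicle and siP300 against siControl. Of 67 genes changed 1.5-fold it called 0 and 2, of 67 changed 2-fold 18 and 21, and of 66 changed 4-fold 46 and 36. A member that did not pass is therefore not shown to be unchanged. Exon lengths, positions and overlaps come from the reference annotation of GRCm38, and promoters from RefSeq.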

Additional observations from a re-analysis of the deposited data

How the results depend on the processing

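Of 65 member calls against a control, 44 held under every alternative run and 21 ended under at least 1. Over all 10 comparisons and 4424 member results under alternatives, 4186 kept their side of the threshold, 137 lost a call, 101 gained one and 0 reversed. A reversal was counted only for a result called in the main fit or in the alternative. Changes of sign among uncalled results were not counted. Without the filter on low counts 1 member was called in siKat6a (Nupr1) and 3 in siKat6b (Nupr1, Ppp1r15a and Chac1), against 0 in both. For siComb against siP300, with 1 member called, DESeq2 gave 2 and no low-count filter 2. Library size alone and a fit of only the groups compared gave 0 each. Leaving out the 4 siRNA libraries highest in MERVL (siP300 2, siKat6b 1 and 3, siComb 2) gave 0 too. The cause was not tested. Leaving out each library in turn gave 6 to 8 members in SAHA, 12 to 18 in A485, 9 to 12 in TSA, 16 to 18 in A485 against SAHA, 15 to 17 in A485 against TSA, 10 to 16 in siP300, 11 to 13 in siComb, and 0 in siKat6a, siKat6b and siComb against siP300.

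With the replicate block, the members called were 9 in SAHA, 17 in A485, 12 in TSA, 16 in A485 against SAHA, 16 in A485 against TSA, 15 in siP300, 12 in siComb, and 0 in siKat6a, siKat6b and siComb against siP300, where it changed no call but that of Cebpg. Outside that last comparison the samples share only a number. There the block ended the calls of Trib3 in siP300 (adjusted p = 0.0574), Mthfd2 in A485 (0.0595), Asns in TSA (0.0702) and in A485 against SAHA (0.0737), and Ddit4 and Eif2ak1 in siComb (0.0643 and 0.0539). Low counts limit Fgf21, Stc2, Atf5, Cebpb, Ddit4, Trib3 and Chac1.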
